A study of Homo sapiens with 36 samples.

Results

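The comparison described here sets the class IIa HDAC degrader #11 against silencing of HDAC4 in untreated HCT-116 cells, a human colorectal carcinoma line, that lack FBXW7. Its members were taken by their titles: 3 *FBXW7*-/- (KO) libraries with #11 and 3 KO libraries with esiHDAC4, 6 of the 36 RNA-seq libraries of the series. All 6 came from the same purchased KO line, so that features of that line and the loss of FBXW7 cannot be told apart. The esiHDAC4 cells were transfected with an enzymatically prepared siRNA pool against HDAC4. The #11 cells received the control pool esiCT together with #11. Both groups were kept for 48 h and received no oxaliplatin (OXPT), only its solvent. The dose of #11 is 1 µM in one label entry and 10 µM in another, and this was not settled. Beside them, 3 untreated KO esiCT libraries served as the reference of each arm, and 6 KO libraries with #11 or esiHDAC4 and 50 µM OXPT for the last 24 h served as the same contrast under OXPT.

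The class IIa HDACs (HDAC4, HDAC5, HDAC7 and HDAC9) are deacetylase-family proteins that shuttle between cytoplasm and nucleus and repress transcription through partners such as the MEF2 factors and the NCOR co-repressors. FBXW7 is the substrate receptor of a ubiquitin ligase. Compound #11 is a proteolysis targeting chimera (PROTAC), a molecule that joins a class IIa HDAC binder to a ligand of the VHL ubiquitin ligase and marks the bound protein for the proteasome, whereas an siRNA pool removes the mRNA. The transcript of HDAC4 is therefore the direct target in one arm alone, and mRNA levels say nothing about the protein. The integrated stress response, to which many of the genes below belong, raises translation of the transcription factor ATF4, which then induces amino acid synthesis and transport genes and the factors DDIT3 (CHOP), ATF3 and TRIB3.

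Depth was similar in both groups, with 12557189 to 20527222 reads counted in genes per library, and 3 reads corresponded to 0.146 to 0.239 CPM, the read count scaled to library size that is used throughout. Of the reads, 8.02% to 10.1% were unmapped. Replicates of a group differed beyond counting noise in every pair. The cells carried the markers of colorectal epithelium, with EPCAM at 243 to 336 CPM and KRT8 at 2045 to 3337 CPM, while VIL1 stayed at or under 0.220 CPM. The summed epithelial markers spanned 6141 to 6591 CPM with #11 and 5866 to 7521 CPM with esiHDAC4. Fibroblast markers summed to 26.5 to 55.9 CPM and 29.6 to 44.2 CPM, nearly all of it COL1A1, with DCN, LUM and POSTN near 0. The summed immune markers were 4.18 to 6.0 CPM with #11 and 2.37 to 3.07 CPM with esiHDAC4, with PTPRC and CD3E at or under 0.0753 CPM, and the endothelial markers 2.30 to 3.22 CPM and 1.27 to 2.33 CPM. The part of these small differences in the results was not tested. Among the other libraries of the model, KO esiCT OXPT replicate 3 stood apart, with 22.3% of reads unmapped, and counts with and without it are given. KO esiHDAC4 OXPT replicate 3, a library of the contrast under OXPT, had the next highest share among the KO libraries, 13.4%.

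HDAC4 mRNA was lower with esiHDAC4 than with #11, while the other class IIa HDAC transcripts showed no called difference. HDAC4 (chromosome 2, 239048168 to 239401654, hg38) measured 22.0, 22.3 and 27.5 CPM in the #11 libraries and 9.21, 9.08 and 15.1 CPM in the esiHDAC4 libraries. The groups did not overlap, and esiHDAC4 replicate 3 was the highest of its group. The log2 fold change of #11 against esiHDAC4 was 1.11 (standard error 0.24, adjusted p = 0.0172 by edgeR's quasi-likelihood test), a call lost without esiHDAC4 replicate 1 or 2 or without #11 replicate 3. The esiCT libraries held 18.9, 14.3 and 24.9 CPM, and neither arm differed from them by a call, with log2 fold changes of 0.30 for #11 (adjusted p = 0.553) and -0.80 for esiHDAC4 (adjusted p = 0.494). HDAC4 overlaps its antisense gene HDAC4-AS1, whose reads cannot be separated in unstranded counts.

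HDAC5 measured 50.6, 50.7 and 51.6 CPM with #11 and 52.3, 41.4 and 45.1 CPM with esiHDAC4, with overlapping groups (log2 fold change 0.14, adjusted p = 0.680). HDAC7 measured 47.8, 45.6 and 47.7 CPM with #11 and 40.7, 38.3 and 35.3 CPM with esiHDAC4, and its groups stood apart without passing the test (0.30, adjusted p = 0.480). HDAC9 was too low to test, with 33 to 67 reads per library. None of the 6 other HDAC genes tested and none of the 19 partner genes tested, among them the MEF2, NCOR and 14-3-3 genes, was called. Of the 10 genes of the VHL ligase, VHL itself, the receptor that #11 recruits, was higher with #11, at 72.9, 85.6 and 101 CPM against 54.5, 46.3 and 42.4 CPM (log2 fold change 0.86, adjusted p = 0.0105). The esiCT libraries held 59.1 to 74.9 CPM, and the VHL call was lost without esiHDAC4 replicate 2. FBXW7 measured 15.8, 14.2 and 17.6 CPM with #11 and 24.9, 26.7 and 21.1 CPM with esiHDAC4 (log2 fold change -0.61, adjusted p = 0.139). Reads were counted over the full gene, so that these values are no check of the edit.

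**Figure D1:**
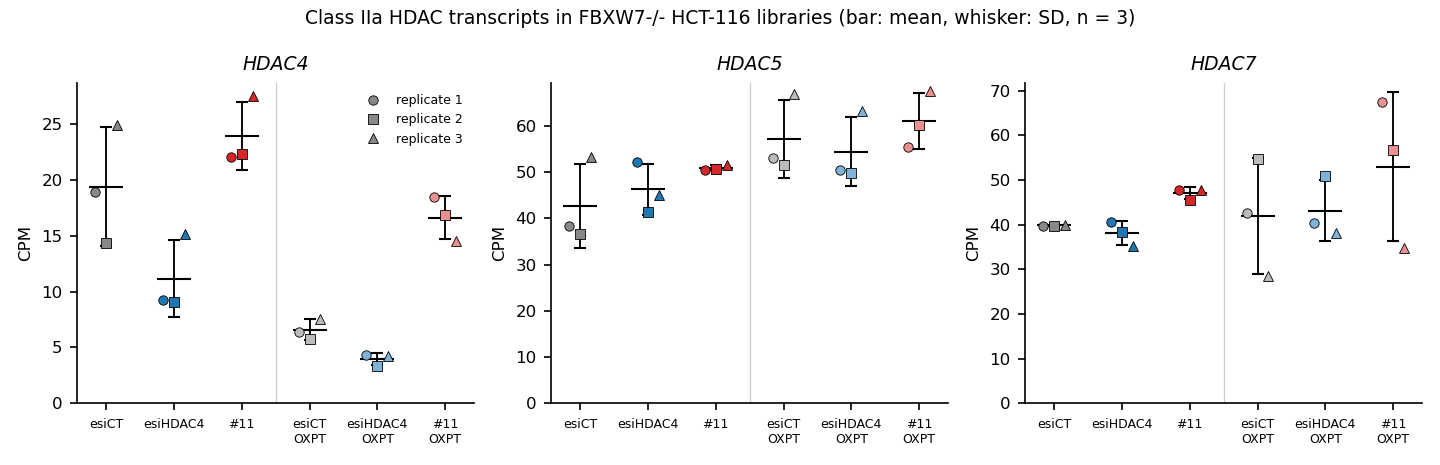
HDAC4, HDAC5 and HDAC7 in the 18 KO libraries, in CPM on a linear axis from 0, by group, with the mean as a bar and the SD of 3 libraries as a whisker. HDAC4 sits at 22.0 to 27.5 CPM with #11 and at 9.08 to 15.1 CPM with esiHDAC4 in untreated cells, while HDAC5 overlaps between these groups and HDAC7 differs by less.

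Across all genes, 562 of 12253 tested were called between #11 and esiHDAC4 (4.59%, adjusted p under 0.05 and a fold over 1.5), 410 higher with #11 (3.35%) and 152 lower (1.24%). The median of the absolute log2 fold change of these genes was 1.06, against a median log2 fold change of -0.01 over all genes tested. In all 562 the CPM of the groups did not overlap, a property that 21% of all genes tested had in the higher and 19.8% in the lower direction. Of the higher genes, 48 were long noncoding RNAs, 11.7% of them against 4.71% of the genes tested. Of the lower genes, 144 were protein coding (94.7% against 91.4% of the genes tested) and 6 were processed pseudogenes (3.95% against 3.0%), both near the share over all genes. The number of calls depended on which libraries were in the model. It was 1751 with only the 6 libraries compared (915 higher and 836 lower). With 6 wild-type libraries added it was 145 (124 higher and 21 lower). It was 956 without KO esiCT OXPT replicate 3, and 159 to 360 without any 1 of the 6 libraries. The log2 fold change also rose with the GC content of the gene (Pearson r = 0.229 across 12247 genes that share these libraries), and with GC content as an offset 878 genes were called, 544 higher and 334 lower.

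Among the gene lists, that of the ATF4 axis of the integrated stress response had the most called genes and the highest median. Some of their promoters are shown here because members of this group moved together. The bases TGATGNAA, a form of the composite C/EBP-ATF element, or TTNCATCA on the other strand, were searched in the RefSeq promoters of GRCh38.p14, from 250 bases before to 50 bases after each start. They were in 1217 of 27305 genes with a promoter sequence (4.46%), in 241 of 9423 genes tested (2.56%), in 27 of 313 genes called higher (8.63%) and in 2 of 121 called lower (1.65%). Of the ATF4 target genes, 19 tested had a sequence and 6 of them held the bases. The following 90-base stretches are printed in the direction of the gene, with the matching bases in capitals, for ATF3 (chr1:212565175-212565264, plus strand, 191 bases before the start), ASNS (chr7:97872428-97872517, minus strand, 68 bases before), CHAC1 (chr15:40953221-40953310, plus strand, 209 bases before) and AARS1 (chr16:70289645-70289734, minus strand, 187 bases before).
ATF3: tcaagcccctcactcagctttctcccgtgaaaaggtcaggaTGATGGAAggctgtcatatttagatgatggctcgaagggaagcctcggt
ASNS: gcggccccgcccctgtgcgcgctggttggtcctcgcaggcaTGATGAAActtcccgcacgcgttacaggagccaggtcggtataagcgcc
CHAC1: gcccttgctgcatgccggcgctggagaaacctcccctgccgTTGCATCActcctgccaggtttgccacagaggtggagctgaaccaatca
AARS1: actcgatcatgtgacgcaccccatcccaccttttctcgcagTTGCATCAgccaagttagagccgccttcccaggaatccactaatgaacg
ATF3 and ASNS carry the bases as written and CHAC1 and AARS1 on the other strand. A match describes these letters only and is not a measured binding site.

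Of the 22 ATF4 target genes tested, 14 were higher with #11 and 0 lower (background 3.35% and 1.24%). All 22 had a positive log2 fold change, and their median was 1.42. The same background, the share of all genes tested, applies to the counts of every list below. The 24-library model with wild-type cells called 6 of them. With a mean of at least 64 counts required in every group, 13 of 21 ATF4 target genes were called higher. DDIT3, the stress factor CHOP (chromosome 12, 57516588 to 57521737), measured 117, 109 and 95.8 CPM with #11 and 9.90, 10.2 and 5.57 CPM with esiHDAC4. The lowest #11 library lay several times above the highest esiHDAC4 library. The gene overlaps MARS1 and MBD6 on the opposite strand, and reads in the shared stretches are ambiguous in unstranded counts. The fitted log2 fold change between the groups was 3.64 (standard error 0.42, adjusted p = 0.000163). Untreated esiCT cells held 7.94 to 16.3 CPM, so that the esiHDAC4 libraries lay at the level of the control. ATF3, an ATF/CREB factor induced by ATF4, was at 191, 194 and 140 CPM against 22.0, 23.2 and 22.8 CPM (log2 fold change 2.95, standard error 0.24, adjusted p = 8.22e-06). TRIB3, a pseudokinase that restrains this response, was at 394, 377 and 222 CPM against 35.8, 54.1 and 34.5 CPM (3.00, standard error 0.30, adjusted p = 3.94e-05). In both genes the groups were widely separate and #11 replicate 3 was the lowest of its group.

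The targets that act on metabolism rose as well. CHAC1, which degrades glutathione, measured 117, 123 and 76.9 CPM with #11 and 14.2, 14.2 and 5.34 CPM with esiHDAC4 (log2 fold change 3.23, standard error 0.61, adjusted p = 0.00630). SESN2, a leucine sensor that restrains mTORC1, measured 156, 154 and 124 CPM against 33.5, 29.1 and 22.8 CPM (2.34, standard error 0.20, adjusted p = 1.03e-05). The groups did not overlap in either gene. The following 8 members were named after their values were seen. ATF4 itself was at 1175, 1239 and 992 CPM against 560, 641 and 442 CPM, a log2 fold change of 1.05 (adjusted p = 0.00453). CEBPB, which pairs with ATF4 on DNA, had a log2 fold change of 1.81 (adjusted p = 0.000193), and AARS1, the alanyl-tRNA synthetase, one of 1.77 (adjusted p = 0.000687). SLC3A2, the heavy chain of amino acid transporters, was at 1033, 1081 and 916 CPM against 316, 413 and 294 CPM (1.57), and its partner SLC7A5 had 1.01 (adjusted p = 0.0335). The serine synthesis genes PHGDH and PSPH had log2 fold changes of 1.40 and 0.84. PHGDH kept its call in all 19 alternatives, while SLC7A5 lost its call in 6 of them and PSPH in 5. ASNS, asparagine synthetase, had low counts, with 7.23, 8.36 and 12.4 CPM against 2.12, 2.14 and 1.05 CPM (2.38, adjusted p = 0.0237). Its call was lost without any 1 of the 6 libraries. ASNS passed the filter of 64 counts only through the group where it was high. Its mean was 147 counts in untreated cells with #11 and 15.7 to 42.3 counts in the other groups. ASNS overlaps another annotated gene on the same strand. Reads in the shared stretches are ambiguous, so that these values can lie below its expression. The cystine transporter SLC7A11, also chosen after its values were seen, had 75.5, 50.2 and 92.3 CPM against 26.9, 41.8 and 11.8 CPM and did not pass (1.43, adjusted p = 0.316).

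**Figure D2:**
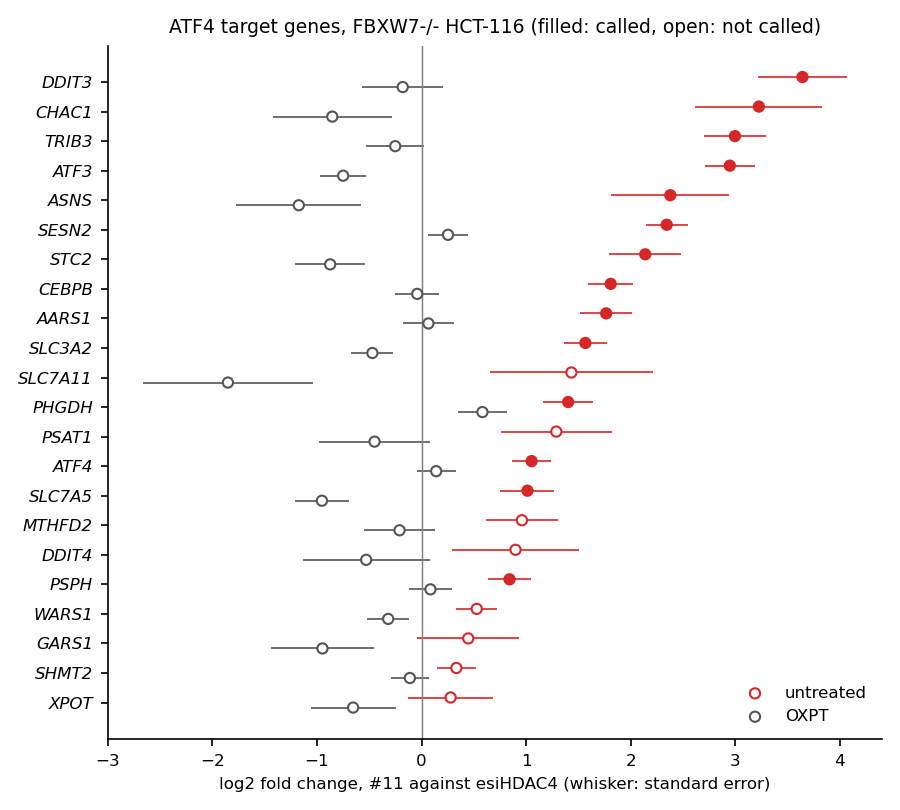
Log2 fold change of #11 against esiHDAC4 for the 22 ATF4 target genes tested, in untreated cells (red) and under OXPT (grey), with the standard error as a whisker and called genes filled. In untreated cells all 22 lie above 0 and 14 are called, and under OXPT 0 are called and 5 lie above 0.

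Other genes of stress signalling were among the largest differences. JUN, the AP-1 subunit, measured 264, 273 and 243 CPM with #11 and 25.9, 22.8 and 33.2 CPM with esiHDAC4 (log2 fold change 3.25, standard error 0.45, adjusted p = 0.000547). GADD45A, a growth arrest gene, measured 308, 326 and 299 CPM against 74.4, 59.7 and 73.1 CPM (2.17, standard error 0.18, adjusted p = 8.22e-06). PPP1R15A, which directs the phosphatase that ends the translation block of the stress response, measured 278, 238 and 236 CPM against 49.1, 52.4 and 44.4 CPM (2.37, standard error 0.28, adjusted p = 0.000163). Replicates were close to each other in all 3 genes and the groups far apart. GDF15, a secreted stress cytokine, measured 594, 579 and 483 CPM against 129, 80.5 and 129 CPM (2.29, adjusted p = 0.00307), and esiCT cells held 115 to 328 CPM. TSC22D3 (GILZ), a glucocorticoid-induced leucine zipper protein, had a log2 fold change of 2.55, UPP1, uridine phosphorylase, one of 2.27, and JDP2, an AP-1 repressor, one of 2.15. Of these 7 genes, PPP1R15A, GDF15 and UPP1 lost the call in the 24-library model, and that was their only loss among 19 alternatives. JUN, TSC22D3, GADD45A and JDP2 kept theirs in all 19.

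Of the 18 ERK feedback genes, 9 were higher with #11 and 0 lower, with a median log2 fold change of 0.89. These genes are induced by ERK signalling and many of them restrain it. DUSP6, the cytoplasmic ERK phosphatase, measured 648, 717 and 441 CPM with #11 and 127, 107 and 174 CPM with esiHDAC4 (log2 fold change 2.15, standard error 0.42, adjusted p = 0.00825). EGR1, an immediate early factor, measured 485, 462 and 374 CPM against 71.0, 60.2 and 107 CPM (2.47, standard error 0.51, adjusted p = 0.0107). SPRY4, an inhibitor of receptor kinase signalling, measured 190, 202 and 188 CPM against 62.3, 72.6 and 85.3 CPM (1.40, adjusted p = 0.000526). In these 3 genes no libraries overlapped, and SPRY4 had the smallest spread. The others called were IER3 (1.46), ERRFI1 (1.21), DUSP5 (1.13), PHLDA1 (1.10), FOSL1 (1.09) and EPHA2 (0.69). FOS, named after its values were seen, was at 20.4, 24.1 and 49.1 CPM against 6.51, 3.53 and 10.8 CPM and did not pass (2.17, adjusted p = 0.079). The count fell to 2 of 18 without esiHDAC4 replicate 1 or 2 and in the 24-library model.

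Of the 8 genes tested for EGFR ligands and receptors, the ligands AREG and HBEGF were higher. AREG measured 1274, 1254 and 867 CPM with #11 and 347, 249 and 393 CPM with esiHDAC4 (log2 fold change 1.78, adjusted p = 0.0304), and HBEGF 33.1, 35.1 and 28.0 CPM against 10.9, 11.6 and 14.8 CPM (1.37, adjusted p = 0.00327). Neither gene overlapped between the groups, but AREG lost its call without most single libraries. Of 12 NF-kB target genes, 4 were higher, namely the subunits RELB (1.23) and NFKB1 (0.99), the adhesion molecule ICAM1 (1.25) and the chemokine CXCL8 (2.41), with a median of 0.85 over the list. CXCL8 was near the limit of the filter, at 9.57, 8.84 and 11.0 CPM against 1.59, 1.21 and 2.78 CPM. Its call and that of ICAM1 were lost without any 1 of the 6 libraries.

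Of the 20 MEF2 and class IIa HDAC target genes tested, 4 were higher and 0 lower, with a median log2 fold change of 0.75 and 15 above 0. JUN, EGR1 and RHOB, which are also immediate early or stress genes, were among them. RHOB, a small GTPase gene, measured 329, 335 and 430 CPM with #11 and 155, 211 and 193 CPM with esiHDAC4, without overlap. Its log2 fold change was 0.97 (adjusted p = 0.0267), a call lost without any 1 of the 6 libraries.

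Of the 29 p53 target genes tested, 7 were higher and 1 lower, and the median of the list was -0.06, close to that of all genes. The 7 higher were the stress genes SESN2 and GDF15, the death receptor TNFRSF10B (1.16), TRIAP1 (1.19), TP53I3 (1.25) and the BH3-only genes BBC3 (PUMA, 0.99) and PMAIP1 (NOXA, 1.28), and POLH, a translesion polymerase gene, was lower (-0.67). The core targets CDKN1A, with a log2 fold change of 0.21, and MDM2, with -0.67, were not called. PMAIP1 measured 120, 153 and 137 CPM against 54.9, 58.4 and 56.3 CPM (adjusted p = 0.0372), and BBC3 69.5, 72.9 and 59.6 CPM against 48.0, 27.0 and 26.3 CPM (adjusted p = 0.0281). These were the 2 genes called of 15 in the BCL2 family. Both stood apart between the groups, but the call of PMAIP1 was lost without any 1 of the 6 libraries and that of BBC3 without 4 of the 6.

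Of the 16 genes tested of a list taken from the study, 7 were higher with #11: AREG, PMAIP1, ICAM1, ERRFI1, HDAC4, BBC3 and RAD52. This list was taken from a study of the same cells and is not independent evidence of a direction. The main text of the study does not name AREG, ICAM1, ERRFI1 or ELF3. RAD52, a homologous recombination gene, measured 23.3, 26.6 and 25.4 CPM against 15.3, 15.3 and 15.4 CPM (log2 fold change 0.71, adjusted p = 0.0331), the only call among 22 homologous recombination genes, whose median was -0.42, and it was lost without any 1 of the 6 libraries. BRCA1 was at 16.05, 9.32 and 15.4 CPM against 19.7, 30.8 and 9.63 CPM and overlapped (-0.56, adjusted p = 0.634). NR4A2 (0.72), RNF43 (0.61), ELF3 (0.10) and GSK3B (-0.07) did not pass either. Of the genes that the study assigned to super-enhancers, 5 of 61 tested in its group 1 and 3 of 24 in its group 2 were higher and 0 lower (background 3.35% and 1.24%), with medians of -0.07 and -0.03. Among them were ATP9A, a phospholipid flippase gene (1.11), HS3ST1, a heparan sulfotransferase gene (0.88), and KRT80, a keratin gene (2.22, adjusted p = 0.0485). The KRT80 call was lost without any 1 of the 6 libraries, in both strand columns and with the GC offset. The count of group 1 was 2 to 5 and that of group 2 was 0 to 2 without 1 of the 6 libraries.

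Some host genes of small nucleolar RNAs were also higher with #11, a group chosen after the values were seen and taken by name. Of 22 genes tested that are named SNHG with a number or GAS5, 7 were higher and 0 lower, with a median log2 fold change of 0.61. GAS5 measured 730, 814 and 876 CPM with #11 and 320, 307 and 316 CPM with esiHDAC4 (1.36, adjusted p = 0.000605). SNHG1 measured 622, 646 and 463 CPM against 193, 232 and 211 CPM (1.44, adjusted p = 0.00101). Both lay far above their esiHDAC4 range in every #11 library. SNHG32 (1.95), SNHG15 (1.62) and SNHG8 (1.49) followed. The spliced RNAs of these genes are short-lived and many are degraded during translation. None of the 67 cytosolic ribosomal protein genes was called, with a median of 0.24 and 63 of them above 0 (edgeR).

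**Figure D3:**
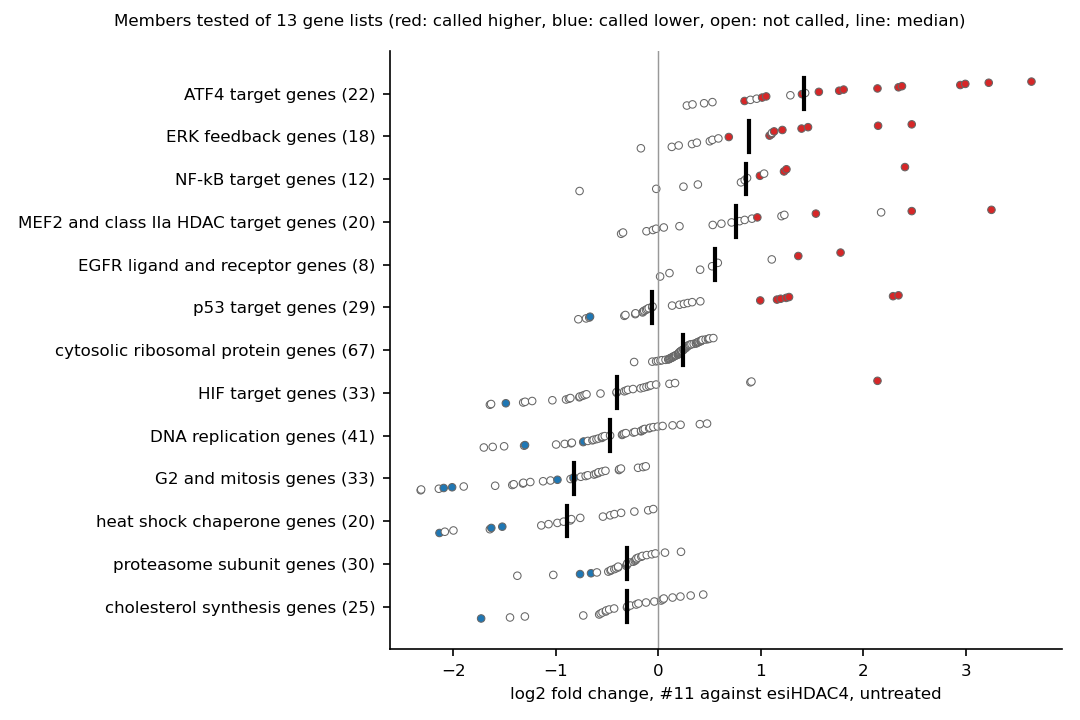
Log2 fold change of #11 against esiHDAC4 in untreated cells for the tested members of 13 gene lists, with called genes filled in red (higher) or blue (lower) and the list median as a bar. The ATF4 list has its median at 1.42 with all members above 0, while the G2 and mitosis list at -0.83 and the heat shock list at -0.89 have all members below 0.

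The genes lower with #11 were fewer, and their calls rested more on single libraries. Of the 20 heat shock chaperone genes tested, 3 were lower and 0 higher, 0 were above 0 and the median log2 fold change was -0.89. HSPA8, the constitutive HSP70 that folds new proteins, measured 339, 272 and 400 CPM with #11 and 1611, 1976 and 855 CPM with esiHDAC4 (-2.14, standard error 0.55, adjusted p = 0.0345). DNAJA1, an HSP70 co-chaperone, measured 74.4, 55.6 and 99.4 CPM against 248, 316 and 146 CPM (-1.63), and the inducible HSPA1B 22.6, 24.4 and 52.2 CPM against 102, 119 and 63.7 CPM (-1.52). The groups did not overlap in these 3 genes, and in each of them esiHDAC4 replicate 3 was the lowest of its group and #11 replicate 3 the highest. Replicate 3 of esiCT was low as well, with 675 CPM of HSPA8 against 2007 and 2213 CPM in the other 2. The second principal component, an axis of variation across the 18 KO libraries, held 22.5% of the variance. On it untreated #11 lay at -30.9, -42.9 and -26.3. Untreated esiCT lay at -2.4, 7.84 and, in replicate 3, -34.3, and untreated esiHDAC4 at -0.39, 14.4 and -13.7. Under OXPT, replicate 3 lay at -20.9 with esiCT and -7.6 with esiHDAC4, and the others of these groups at 36.7 to 48.6. The part of this shift in the results was not tested. HSP90AA1, the inducible HSP90, named after its values were seen, was at 952, 740 and 961 CPM against 2987, 5446 and 2181 CPM and did not pass (-2.0, adjusted p = 0.073). HSPA8 and DNAJA1 lost the call without esiHDAC4 replicate 1 or 2 and without any 1 #11 library. HSPA1A and HSPA1B are near-identical copies, so that the count of HSPA1B is uncertain.

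Of the 33 G2 and mitosis genes, 4 were lower with #11 and 0 higher, 0 lay above 0 and the median was -0.83. In bulk RNA, fewer mitotic cells and less RNA of these genes per cell cannot be told apart. BUB1, the spindle checkpoint kinase, measured 27.1, 19.4 and 24.5 CPM with #11 and 88.0, 132 and 66.1 CPM with esiHDAC4 (-2.01, standard error 0.50, adjusted p = 0.0311). ASPM, a spindle pole gene, measured 6.71, 3.65 and 9.96 CPM against 27.2, 37.0 and 22.1 CPM (-2.10, adjusted p = 0.0343). CDCA3, which promotes mitotic entry, measured 27.0, 29.7 and 16.5 CPM against 43.1, 53.8 and 48.1 CPM (-0.98, adjusted p = 0.0117), and the kinase AURKA had -0.83. All 4 were below the esiHDAC4 range in every #11 library, and CDCA3 kept its call without each single library except esiHDAC4 replicate 2. BUB1 and ASPM lost theirs without esiHDAC4 replicate 1 or 2 and without any 1 #11 library. The spindle genes KIF20A, CENPF and DLGAP5, named after their values were seen, had log2 fold changes of -2.32, -2.32 and -2.14 and did not pass (adjusted p = 0.0749, 0.125 and 0.0572). The list had 0 to 3 calls without any 1 of the 6 libraries, 9 without KO esiCT OXPT replicate 3 and 10 with GC content as an offset. Of the other cell cycle genes, SPAG5 (-2.08), a spindle protein, CDCA2 (-1.67) and SKP2 (-1.55), the ubiquitin ligase receptor that degrades p27, were lower, as were FEN1 and PRIM2, 2 of 41 DNA replication genes (median -0.47).

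Other lower genes included TFRC, FTL and PRDX1, while the cystine transporter above had a positive fold change that did not pass. TFRC, the transferrin receptor, measured 51.1, 36.0 and 63.0 CPM with #11 and 220, 320 and 176 CPM with esiHDAC4 (log2 fold change -2.25, standard error 0.57, adjusted p = 0.0335). FTL, the ferritin light chain, measured 1190, 1355 and 1257 CPM against 3160, 2619 and 2314 CPM (-1.09, adjusted p = 0.0216). PRDX1, a peroxiredoxin, measured 257, 272 and 358 CPM against 906, 960 and 787 CPM (-1.58, standard error 0.20, adjusted p = 0.000298). None of the 3 overlapped between the groups, and PRDX1 alone among the named lower genes kept its call in all 19 alternatives. Reads of FTL can be shared with its pseudogenes FTLP2 (-1.32) and FTLP3 (-1.05), which were also called, and the calls of FTL and TFRC were lost without esiHDAC4 replicate 1 or 2 or any 1 #11 library. FTL was the only call of 18 NRF2 target genes.

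In metabolism, single members of larger lists were lower, beside 1.24% of all genes tested called lower and 3.35% called higher. Counts of 1 or 2 per list are too few to be told apart from these shares. HMGCS1, the HMG-CoA synthase of sterol synthesis, measured 35.2, 31.2 and 32.2 CPM against 85.6, 152 and 89.5 CPM (log2 fold change -1.73, adjusted p = 0.0169), 1 of 25 cholesterol synthesis genes (median -0.30). PGAM1 (-1.40) was 1 of 18 glycolysis genes, UQCRC2 (-0.92) 1 of 56 OXPHOS genes, and PSMA4 and PSMC1 2 of 30 proteasome subunit genes (median -0.30). In the lists around these genes most members did not pass. Of 33 HIF target genes, STC2 was higher (2.14) and the demethylase gene KDM3A lower (-1.49), with a median of -0.41. MT-CYB was the 1 mitochondrial genome gene of 13 called higher (0.72). Of 12 Wnt target genes, TCF7 was higher (0.80) and the antagonist DKK1 lower (-1.06). By edgeR none of the 21 interferon-stimulated, 11 fatty acid synthesis, 12 basement membrane or 17 S100 and annexin genes was called, and the values of BST2 (1.30, adjusted p = 0.0741), ELOVL6 (-0.90, adjusted p = 0.255) and ANXA1 (-0.51, adjusted p = 0.105) were among those nearest to the threshold in their lists.

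**Figure D4:**
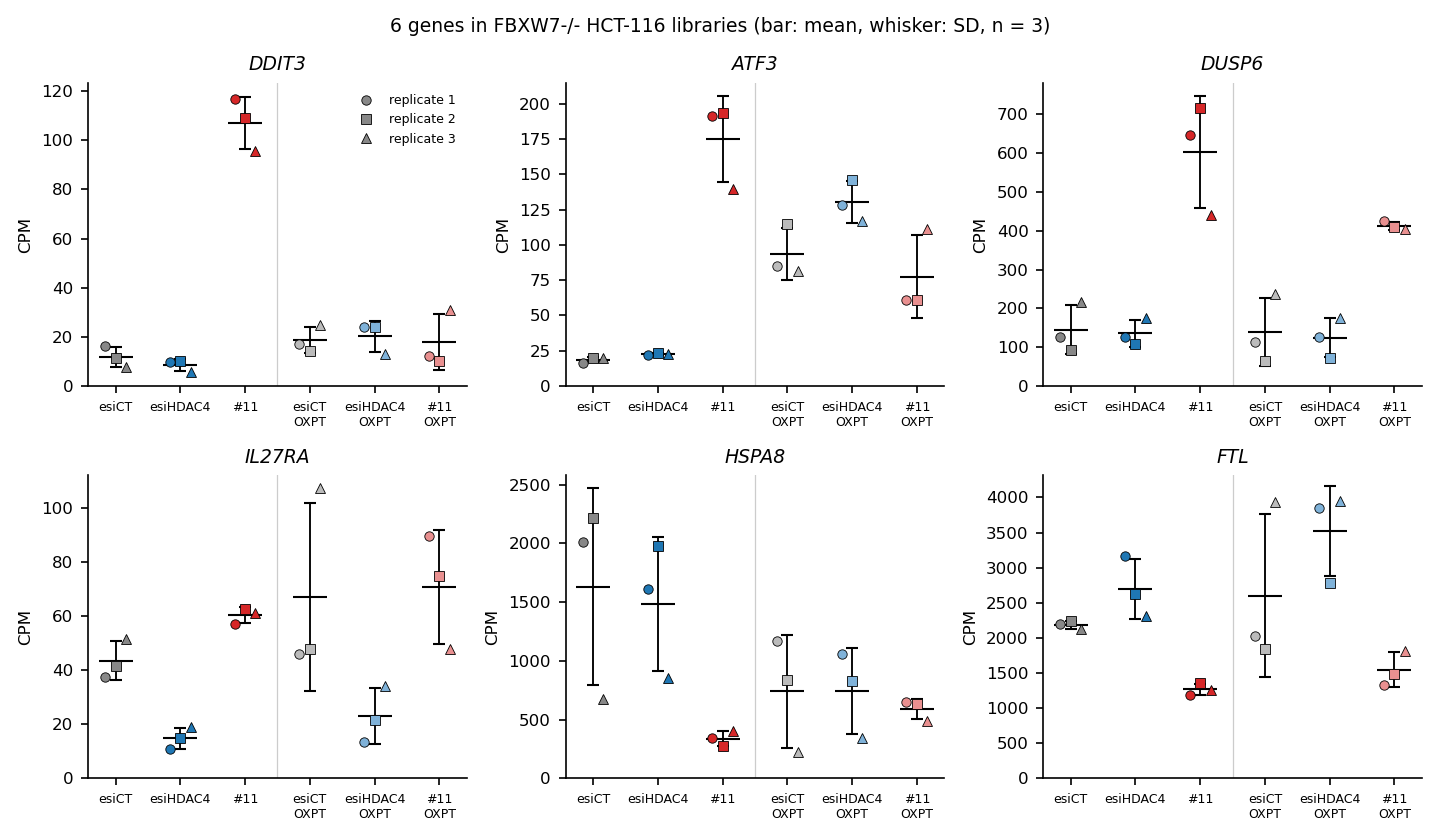
DDIT3, ATF3, DUSP6, IL27RA, HSPA8 and FTL in the 18 KO libraries, in CPM on linear axes from 0, by group, with the mean as a bar and the SD of 3 libraries as a whisker. In untreated cells DDIT3 spans 95.8 to 117 CPM with #11 and 5.57 to 10.2 CPM with esiHDAC4, and under OXPT the groups overlap; IL27RA spans 37.4 to 51.4 CPM in esiCT cells and 11.0 to 18.8 CPM in esiHDAC4 cells.

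Each arm was also set beside untreated esiCT cells. Both of these comparisons use the same 3 esiCT libraries, and each shares its other 3 libraries with the comparison above. Against esiCT, #11 had 375 called genes (3.06%), 259 higher (2.11%) and 116 lower (0.947%), and esiHDAC4 had 2 (0.0163%), both lower, TCF7 (-1.12) and WRNIP1 (-0.90), of 613 genes at an unadjusted p under 0.05. DESeq2 called 60 for esiHDAC4. Pairing by replicate number was not checked between esiHDAC4 and esiCT. With replicate number in the edgeR model, 4 genes were called for esiHDAC4. For the 410 genes higher with #11 than with esiHDAC4, the median log2 fold change from esiCT was 0.90 with #11 and -0.23 with esiHDAC4, and 329 of them lay farther from esiCT in the #11 arm. For the 152 lower genes the medians were -0.75 and 0.18, and 135 lay farther from esiCT in the #11 arm. Most of these called genes were thus nearer to the control in esiHDAC4 cells. They were chosen with the same #11 and esiHDAC4 libraries, and the share over all genes tested was not computed. The ATF4 list had medians of 1.18 with #11 and -0.23 with esiHDAC4.

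A smaller number of genes lay farther from esiCT in the esiHDAC4 arm. IL27RA, an interleukin receptor subunit, measured 57.3, 62.8 and 61.3 CPM with #11, 11.0, 14.7 and 18.8 CPM with esiHDAC4 and 37.4, 41.6 and 51.4 CPM with esiCT. Against esiHDAC4 it was higher with #11 (log2 fold change 2.03, standard error 0.37, adjusted p = 0.00475), and against esiCT the log2 fold changes were 0.48 with #11 (adjusted p = 0.519) and -1.55 with esiHDAC4 (adjusted p = 0.197). DNAL4, a dynein light chain gene that overlaps SUN2, measured 35.4, 39.4 and 31.0 CPM with #11, 9.32, 7.69 and 11.4 CPM with esiHDAC4 and 25.8, 19.99 and 32.9 CPM with esiCT (1.90 between the arms, adjusted p = 0.00453). Both were lowest in all 3 esiHDAC4 libraries. TRIAP1, a small p53-induced gene, had a log2 fold change from esiCT of 0.06 with #11 and -1.14 with esiHDAC4, TCF7 one of -0.32 and -1.12, and AUH, a leucine catabolism gene, one of 0.40 and -0.79. CYP24A1, the vitamin D 24-hydroxylase, went the other way, with 9.19, 10.1 and 8.71 CPM with #11, 22.3, 38.6 and 18.3 CPM with esiHDAC4 and 8.61, 9.77 and 10.7 CPM with esiCT.

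The same contrast under OXPT, in 6 libraries that the untreated contrast does not use, gave 82 called genes (0.669%), 51 higher (0.416%) and 31 lower (0.253%). This count rested on single libraries. Without KO esiHDAC4 OXPT replicate 3 it was 501 (297 higher and 204 lower), and without any other of the 6 libraries it was 1 to 24. Across the 12253 genes, which are not independent replicates, the log2 fold changes of the 2 contrasts had a Pearson r of 0.546 and a Spearman rho of 0.519. Both contrasts also rose with the GC content of the gene (Pearson r = 0.229 untreated and 0.303 under OXPT). Against esiCT in untreated cells, r was -0.462 for esiHDAC4 and -0.0337 for #11. The part of GC content in the shared directions was not tested. Of the 410 higher genes, 302 (73.7%) had a positive log2 fold change under OXPT, against 48.3% of all genes, and their median was 0.25 instead of 1.10. Of the 152 lower genes, 119 (78.3%) had a negative one, against 51.7% of all genes, with a median of -0.34 instead of -0.93. The directions were thus mostly shared. The sizes were smaller, which the choice of these genes by their untreated values favours. These medians therefore do not test whether OXPT changes the contrast. The genes called in both numbered 30, 5.34% of the untreated and 36.6% of the OXPT calls, 26 of them in the same direction.

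The interaction, which tests the difference of the 2 contrasts itself, was called for 74 genes (0.604%), 65 with a lower value under OXPT (0.53%) and 9 with a higher one (0.0735%), and 10 of the 22 ATF4 targets were among the 65. DDIT3 under OXPT measured 12.3, 10.4 and 31.1 CPM with #11 and 23.9, 24.0 and 12.99 CPM with esiHDAC4, with overlapping groups (log2 fold change -0.18, adjusted p = 0.869). ATF3 measured 60.6, 60.8 and 111 CPM against 128, 146 and 117 CPM (-0.75, adjusted p = 0.140), and its interaction was -3.70 (adjusted p = 3.49e-05). The ATF4 list had 0 calls under OXPT by edgeR and a median of -0.38, with 5 of 22 above 0, and the snoRNA host genes had 0 calls and a median of 0.09. Of the lower groups, the heat shock list had a median of -0.29 and the G2 and mitosis list one of -0.14, both with 0 calls. Called in opposite directions were 4 genes, among them CCN2, a secreted matricellular protein, at 1.59 untreated and -1.66 under OXPT, DUSP5 at 1.13 and -0.85, and CAPN15 at -0.71 and 0.91. These genes were chosen after their values were seen, and the untreated calls of CCN2 and CAPN15 were lost without most or all of the 6 libraries in turn. The 24-library model called 0 interactions, with 687 at an unadjusted p under 0.05.

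Genes that differed between #11 and esiHDAC4 in both conditions included HDAC4 itself, with 18.4, 16.9 and 14.6 CPM under OXPT with #11 and 4.28, 3.37 and 4.25 CPM with esiHDAC4 (log2 fold change 2.07, standard error 0.26, adjusted p = 0.00524). Its interaction was 0.96 (adjusted p = 0.349). IL27RA had 2.03 untreated and 1.63 under OXPT, DNAL4 1.90 and 1.56, CORO2B, a coronin gene, 1.59 and 2.66, and SYT1, a synaptotagmin gene, 1.40 and 1.5. SPRY4 had 1.40 and 1.21, KIAA0040 1.32 and 1.20, AUH 1.19 and 1.21, and TCF7 0.80 and 0.81. Among the lower genes, FTL had -1.09 and -1.19. These genes are listed because they were called in the same direction in both contrasts, which share no libraries. Their agreement thus follows from the choice and is no separate evidence. DUSP6 was high with #11 in both, at 425, 411 and 405 CPM against 127, 73.0 and 175 CPM under OXPT, but there it did not pass (1.73, adjusted p = 0.0687).

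**Figure D5:**
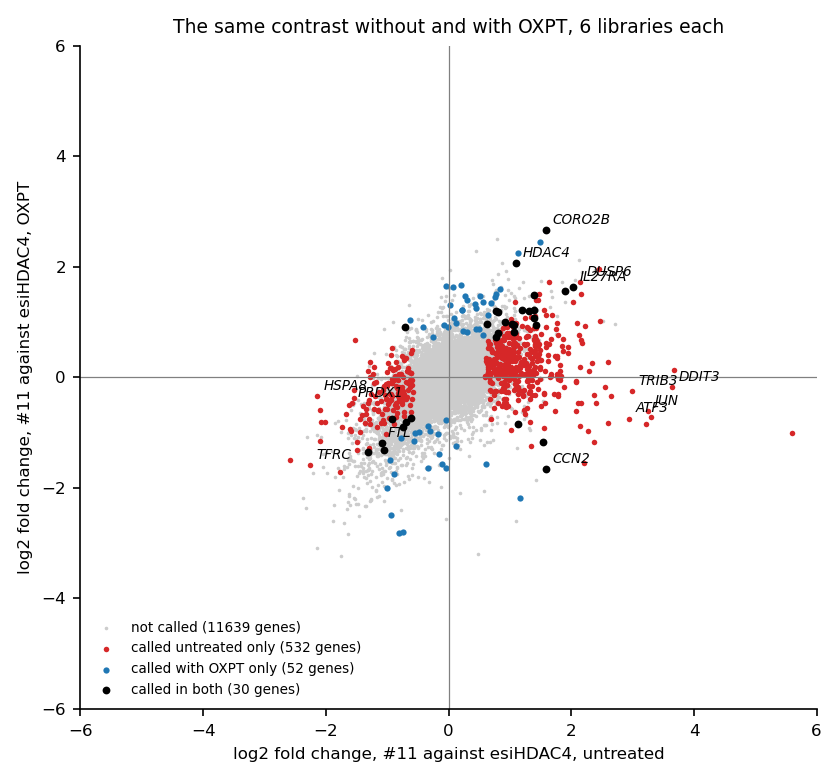
Log2 fold change of #11 against esiHDAC4 for 12253 genes, in untreated cells on the x axis and under OXPT on the y axis, with 532 genes called only untreated, 52 called only under OXPT and 30 called in both. DDIT3, TRIB3, ATF3 and JUN lie far to the right near or below 0 on the y axis, while HDAC4, IL27RA and CORO2B lie in the upper right.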

How the data were processed

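PolyA RNA of HCT-116 cells was sequenced. For each library the authors deposited raw counts, whole reads per gene by unstranded, forward and reverse counting, without normalization or filter. The submitters' notes name Trimmomatic 0.39, STAR 2.7.11a and hg38; the annotation is not given in the sources used here, and gene names and positions were taken from GENCODE 44. According to its methods the study tested salmon estimates with DESeq2, not these counts. The kit is named as stranded, but forward and reverse totals were equal, so the unstranded column was used.

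Counts were scaled by TMM to CPM and tested with edgeR 4.0.16 (R 4.3.3), by the quasi-likelihood F test with Benjamini-Hochberg adjustment, in 18 KO libraries of 6 groups of 3, without covariates, over 12253 genes with a mean of at least 64 counts in a group. A gene was called at an adjusted p under 0.05 and a fold over 1.5, and only such genes are described as higher or lower. Standard errors are approximate, from the fold change and the F statistic. Reads outside genes stayed out of library sizes (3.9% to 4.84% without a feature and 10.9% to 11.6% ambiguous, of all reads). The spread between samples may be technical, since nothing says that replicates were separate cultures; an exact permutation test of 3 against 3 cannot go below p = 0.1, so none was used. Members, gene lists and tests were chosen with earlier results of these data known. The rule for named genes took the class IIa HDAC genes and those of the list taken from the study. It took the 14 called genes with the largest fold change in each direction with at least 64 counts in both groups. It also took up to 4 genes per list by p (2 where none was called), and up to 10 genes called in both conditions. Other genes are said to be chosen after their values were seen or listed as called members of a list. Some genes are not reported here. Lists are given by counts and medians without a set test. Promoters came from RefSeq. DESeq2 1.42.0, other filters, scalings, columns and library sets were alternatives. The procedure was tested on simulated data. Wild-type libraries entered 1 alternative only, as their labels conflict on the esiRNA.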

Additional observations from a re-analysis of the deposited data

Results flagged for a closer look

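The contrast of #11 against esiHDAC4 differed between OXPT-treated and untreated cells, by a test of the difference itself (edgeR's quasi-likelihood interaction term, adjusted p under 0.05 and a fold over 1.5), in 74 genes, and 24 genes named here were among them. For 23 of them the log2 fold change was lower under OXPT, and for CAPN15 it was higher, by 1.63. For the stress factors the difference of the log2 fold changes, OXPT minus untreated, was -3.82 for DDIT3, -3.70 for ATF3, -3.25 for TRIB3, -1.85 for CEBPB, -3.87 for JUN, -1.96 for JDP2, -2.74 for TSC22D3, -2.69 for PPP1R15A and -1.55 for GADD45A. For the genes of metabolism and transport it was -4.08 for CHAC1, -2.09 for SESN2, -3.25 for UPP1, -3.01 for STC2, -1.70 for AARS1, -2.04 for SLC3A2 and -1.97 for SLC7A5. For signalling and matrix genes it was -1.69 for HBEGF, -1.55 for ERRFI1, -1.43 for EPHA2, -1.98 for DUSP5, -3.25 for CCN2 and -3.34 for CCN1, and for the snoRNA host SNHG32 -1.52. CCN1, chosen after its values were seen, was at 65.3, 68.6 and 34.3 CPM with #11 and 23.8, 30.3 and 21.1 CPM with esiHDAC4 in untreated cells. Groups of 3 are too small to look for outlying samples.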

How the results depend on the processing

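Main counts were 562 genes untreated (410 higher, 152 lower), 82 under OXPT, 74 for the interaction, 375 for #11 and 2 for esiHDAC4 against esiCT, and 67 calls in the gene lists. DESeq2 gave 995 (658 and 337), 354, 231, 748, 60 and 101. Without the count filter they were 1239 (578 and 661), 934 and 155, and 143 in the lists; on only the groups compared 1751 (915 and 836) untreated, 0 under OXPT by edgeR (1432 at an unadjusted p under 0.05), 566 for #11 and 0 for esiHDAC4 against esiCT (1713), and 153 in the lists, with fewer libraries behind the spread. The 9 untreated KO libraries gave 1354, and the 24 with wild type 145 untreated, 12 under OXPT, 0 interactions and 18 in the lists. A GC offset gave 878 (544 and 334), 171 and 117. The reverse-strand column kept these 6 counts within 1.5 times, and the forward-strand column, RLE scaling and 64 counts in every group kept the 4 they were run for (all but those against esiCT); the cause of these changes was not tested. Same-numbered libraries of the 2 groups did not deviate together (r = -0.0305, -0.118 and 0.0197 untreated, -0.24, 0.177 and -0.111 under OXPT; 1 of 6 correlated best with its own number), so numbers do not pair them; with the replicate block the counts were 1031 (710 and 321), 365, 152, 783, 4 and 111, and with GC offset and block 1431, 579 and 274, and 144 in the lists. Leaving out single libraries gave 159 to 956, 1 to 501, 31 to 141, 96 to 704, 0 to 3 and 25 to 98; each highest value but that under OXPT came from leaving out KO esiCT OXPT replicate 3, an alternative added after seeing the data. The 501 under OXPT came from leaving out KO esiHDAC4 OXPT replicate 3. Of 94 named genes called, 21 kept call and sign in all 19 alternatives. Uncalled genes near 0 changed sign: GSK3B to 0.0138 (reverse strand), 0.0491 (GC offset), 0.0537 (GC offset with block) and -0.136 to 0.036 (leaving out a library) and ELF3 to -0.104 to 0.553 (leaving out a library). Depth limits low genes such as ASNS and CXCL8, near 1 to 12 CPM, and the count of ASNS is also limited by its overlap with another gene.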
